A study of Homo sapiens with 6 samples.

Results

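Aldehyde dehydrogenases oxidise aldehydes to carboxylic acids with NAD or NADP as the electron acceptor. The ALDH1A enzymes turn retinaldehyde into retinoic acid, the ligand of the nuclear retinoic acid receptors, and their activity is widely used to mark stem-like and drug-tolerant tumour cells. Most other members sit in mitochondria or in the endoplasmic reticulum and finish the breakdown of amino acids, GABA, ethanol and lipids. The 10 genes described here are ALDH1A1, ALDH1A2, ALDH1A3, ALDH1B1, ALDH2, ALDH3A2, ALDH5A1, ALDH6A1, ALDH7A1 and ALDH9A1, taken by symbol from 26485 genes in the deposited count table. They were chosen by symbol with their control and knockout read counts in these libraries already known, so their differences are given as a description, with no p-value and as support for nothing. Of the 10 members, 9 had a read in at least 1 library and 8 passed the low-count filter. ALDH1A2 and ALDH1A3 did not pass it.

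The libraries came from cultured OCI-LY8 cells, a lymphoma line that expresses germinal centre B-cell genes, grown with 10% serum. In 3 libraries the cells carried the non-targeting guide sgNTC1 (genotype WT), and in 3 they carried a guide against SETD1B, a histone H3 lysine 4 methyltransferase (genotype SETD1B knockout). The series' design text describes the line as KMT2D mutant, which both groups would share, but it names OCI-LY19 where the sample labels name OCI-LY8. The labels show a single guide name per group and do not say whether the replicates were separate cultures or whether the edited cells were a clone, so p-values measure only the spread between these libraries, which may be technical, and the guide's effect cannot be told apart from other differences between the cell populations.

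Libraries held 28726108 to 34453249 counts. The germinal centre B-cell markers MS4A1, CD79A, CD79B, PAX5, BCL6 and MME were each above 1 CPM on average (CPM is the count per 1000000 counts of the library, after scaling), whereas none of the 5 epithelial, 5 fibroblast or 3 hepatocyte markers was, nor any of KRT18, CDH1, COL3A1 and TTR above 0. Of 5 plasma cell markers 4 were above 1 CPM, and their sum was 1548 to 1625 CPM in control and 1039 to 1114 CPM in knockout libraries, with JCHAIN at 594 to 624 and 6.39 to 7.61 CPM. The markers did not move together. PRDM1 was also lower after knockout (8.38 to 9.56 against 2.82 to 3.33 CPM). IRF4 was higher (548 to 573 against 619 to 670 CPM), and XBP1 overlapped (397 to 426 against 396 to 454 CPM). Of 6 T and NK cell and 6 myeloid markers 1 each was above 1 CPM, and both were lower after knockout, CD8A at 6.46 to 6.96 against 4.02 to 5.67 CPM and ITGAM at 6.51 to 8.19 against 2.12 to 2.78 CPM. The SETD1B transcript ranged over the controls from 53.8 to 59.8 CPM and was 87.4, 90.2 and 55.1 CPM in knockout replicates 1, 2 and 3, so the transcript level gives no sign of the loss that the label names. In such bulk libraries fewer cells with a transcript and less of it per cell cannot be told apart. Knockout replicate 3 stood apart from the other knockouts on the second principal component (-30.1 against 15.0 and 20.8), so results that depend on it are given with and without it.

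The stretches upstream of the transcript starts show how unlike the members are in sequence before any count is considered. RefSeq windows (GRCh38.p14) were matched for 9 members, ALDH2 being the other. The 250 bases before the start are shown for the 3 retinaldehyde enzymes and for ALDH1B1 and ALDH5A1, which are the other members that differed between the groups, at chr9:72953054-72953303 (minus strand), chr15:58065712-58065961 (minus strand), chr15:100879581-100879830 (plus strand), chr9:38392452-38392701 (plus strand) and chr6:24494719-24494968 (plus strand). They read 5′ to 3′ along the gene, and capitals mark CCAAT or, on the other strand, ATTGG. For ALDH1A1, ALDH1A2 and ALDH1A3 these windows lie inside the longer spans that GENCODE gives the genes.
ALDH1A1: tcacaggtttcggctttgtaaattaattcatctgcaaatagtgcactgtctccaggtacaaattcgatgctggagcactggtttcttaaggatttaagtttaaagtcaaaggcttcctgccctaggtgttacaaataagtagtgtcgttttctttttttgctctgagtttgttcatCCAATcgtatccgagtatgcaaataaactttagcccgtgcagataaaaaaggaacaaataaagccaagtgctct
ALDH1A2: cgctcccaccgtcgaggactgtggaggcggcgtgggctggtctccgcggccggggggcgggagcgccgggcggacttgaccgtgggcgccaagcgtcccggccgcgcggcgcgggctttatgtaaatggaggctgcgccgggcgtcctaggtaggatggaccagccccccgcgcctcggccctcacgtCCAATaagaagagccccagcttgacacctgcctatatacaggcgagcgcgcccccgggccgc
ALDH1A3: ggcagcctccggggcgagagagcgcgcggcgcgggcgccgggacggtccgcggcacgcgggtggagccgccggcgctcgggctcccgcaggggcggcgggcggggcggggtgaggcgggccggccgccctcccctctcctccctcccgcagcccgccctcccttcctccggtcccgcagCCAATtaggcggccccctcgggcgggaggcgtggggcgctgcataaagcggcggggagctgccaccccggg
ALDH1B1: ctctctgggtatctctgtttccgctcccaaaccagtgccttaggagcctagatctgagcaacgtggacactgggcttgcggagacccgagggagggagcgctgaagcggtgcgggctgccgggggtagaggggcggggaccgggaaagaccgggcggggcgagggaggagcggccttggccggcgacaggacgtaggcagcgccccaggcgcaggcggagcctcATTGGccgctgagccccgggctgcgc
ALDH5A1: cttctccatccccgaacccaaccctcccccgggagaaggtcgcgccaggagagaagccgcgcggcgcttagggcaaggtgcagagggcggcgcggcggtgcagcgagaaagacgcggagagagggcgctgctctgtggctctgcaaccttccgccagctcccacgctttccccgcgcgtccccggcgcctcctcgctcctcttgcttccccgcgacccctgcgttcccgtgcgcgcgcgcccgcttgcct

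The ALDH1A1 window was AT-rich, with a GC content of 38.4% and 6 CpG sites, against medians of 58% and 11 over 35116 RefSeq windows of the same length. The first windows of ALDH1A2 and ALDH1A3 were rich in both (72.8% with 33 CpG sites and 82.4% with 38), as were ALDH1B1 (70.4%, 23 CpG sites) and ALDH5A1 (72%, 33 CpG sites). A second window of ALDH1A2 was low in both, at 41.6% with 1 CpG site. The first windows of all 3 retinaldehyde enzymes held a single CCAAT box each, the promoter element bound by NF-Y. It ended 70, 58 and 67 bases before the start in ALDH1A1, ALDH1A2 and ALDH1A3, and the second window of ALDH1A2 held none. This box is common, being found in 32.0% of all windows on either strand, and ALDH6A1 held 4 of them. The GC box GGGCGG was present in the first window of ALDH1A2, ALDH1A3, ALDH1B1, ALDH5A1, ALDH7A1 and ALDH9A1 but not in that of ALDH1A1, ALDH3A2 or ALDH6A1 (42.6% of all windows, either strand). The second window of ALDH3A2 held 4 GC boxes. No member's window held the TATA box, spelled TATAAA (10.7% of all windows), the nuclear receptor motif, spelled AGGTCA (12.1%), or the antioxidant response core, spelled TGACNNNGC (10.9%), each searched on both strands. A match to the last of these can hold a match to the one before it on the other strand. The E-box CACGTG (6.34% of all windows, either strand) was found in the second window of ALDH3A2 and in no other of these windows.

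ALDH1A1 was the member that differed most between the groups. This gene for the cytosolic retinaldehyde dehydrogenase (chromosome 9, 72900662 to 73080442, hg38) held 32, 53 and 44 reads in control replicates 1, 2 and 3 and 364, 326 and 430 reads in the knockouts. Scaled for depth these counts were 0.928, 1.83 and 1.44 CPM against 11.8, 11.3 and 13.6 CPM. Every knockout library lay far above every control library, and knockout replicate 3 was the highest of all 6. The means were 1.40 ± 0.453 and 12.2 ± 1.22 CPM (SD, n = 3 each), an 8.74-fold difference, and the fitted log2 fold change was 3.14 (SE 0.22). In the fit across 12907 genes this was the 4th highest log2 fold change. Of cell types known for ALDH1A1, 3 hepatocyte markers summed to 0.0345 to 0.131 CPM in control and 0.0949 to 0.259 CPM in knockout libraries (TTR at 0), ranges that overlapped. The 4 endothelial markers summed to 13.03 to 14.9 and 16.9 to 18.9 CPM, nearly all of it PECAM1 (KDR at 0). The 5 fibroblast markers summed to 0.345 to 0.493 and 0.538 to 0.589 CPM (COL3A1 at 0). Among them DCN was higher after knockout (at most 0.0290 CPM against 0.348 to 0.453 CPM) and COL1A1 lower (0.311 to 0.393 against 0.130 to 0.190 CPM). The part of these markers in the ALDH1A1 result was not tested.

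The other retinaldehyde enzymes were absent or nearly so. ALDH1A2 had 0 reads in all 6 libraries, and the 3 reads that such a zero still allows equal 0.0870 to 0.104 CPM, depending on the library. ALDH1A3 had 1 read over the 3 controls and 2 reads over the 3 knockouts, too few for a comparison. ALDH1A1 thus supplied nearly all ALDH1A reads in both groups. In CPM per kilobase of annotated exons, a scale on which genes can be compared, ALDH1A1 made up 0.407% to 0.798% of the summed level of the 10 members in the controls and 5.12% to 5.82% in the knockouts. The summed level itself was 108 to 109 in the controls and 105 to 111 in the knockouts, so the ranges overlapped. The groups did not overlap in the members' summed CPM, which was 414 to 417 in control and 385 to 402 in knockout libraries, nor in the sum per kilobase over all 19 family genes (254 to 257 against 238 to 246).

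**Figure D1:**
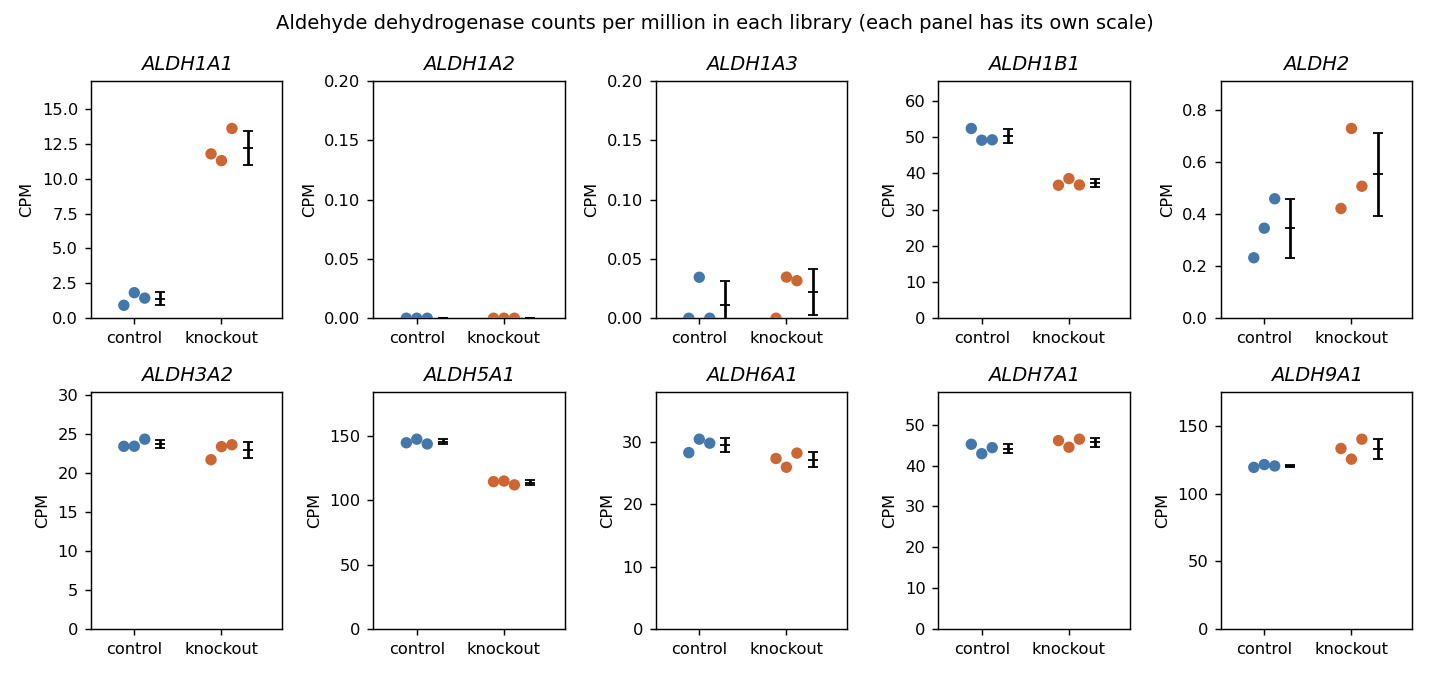
Depth-scaled count (CPM, vertical axis, a scale of its own in each panel) of the 10 members in 3 control (blue) and 3 knockout (orange) libraries, with the mean and SD in black beside the points. ALDH1A1 ranges from 0.928 to 1.83 CPM in control and from 11.3 to 13.6 CPM in knockout libraries, ALDH1B1 and ALDH5A1 are lower in every knockout library, and ALDH1A2 is at 0 throughout.

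Among the mitochondrial acetaldehyde enzymes, ALDH1B1 was well expressed and ALDH2 was not. ALDH1B1 (chromosome 9, 38392664 to 38398661) measured 52.4, 49.1 and 49.3 CPM in control cells and 36.7, 38.5 and 36.8 CPM after knockout. The groups did not overlap, and within each the libraries were close together. Its means were 50.3 ± 1.84 and 37.4 ± 1.03 CPM (SD, n = 3 each), a 1.35-fold lower level in the knockouts with a log2 fold change of -0.43 (SE 0.06). ALDH2, the main acetaldehyde-clearing enzyme of liver, had only 8, 10 and 14 reads in the controls and 13, 21 and 16 in the knockouts. These ranges overlapped, and the log2 fold change of 0.68 carried an SE of 0.35. In GENCODE the protein-coding AC002996.1, which has no counts here, overlaps ALDH2 on the same strand. The sources do not say how reads shared by genes were counted. ALDH1A1 and ALDH1B1 lie on different arms of chromosome 9 and differed in opposite directions.

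ALDH5A1, the succinic semialdehyde dehydrogenase that closes the GABA shunt (chromosome 6, 24494852 to 24537207), was the highest member by CPM in the controls. Control values were 145, 148 and 144 CPM and knockout values were 115, 115 and 112 CPM. All knockout values lay below all control values, and the libraries of a group differed by a few percent. The means of 145 ± 1.93 and 114 ± 1.59 CPM (SD, n = 3 each) gave a 1.28-fold lower level in the knockouts and a log2 fold change of -0.35 (SE 0.05). ALDH5A1 overlaps GPLD1 on the opposite strand (1654 reads in all), and the sources do not say whether reads were counted by strand.

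For the remaining 4 tested members the difference was small and not called. ALDH9A1, which oxidises aminoaldehydes and serves carnitine synthesis, was the most abundant member per kilobase. Its control libraries held 120, 122 and 121 CPM and its knockout libraries 134, 126 and 141 CPM. The knockout libraries lay above the controls, but they were spread more widely, and the log2 fold change was 0.14 (SE 0.06). ALDH6A1, the methylmalonate semialdehyde dehydrogenase of valine breakdown, had 28.3, 30.4 and 29.8 CPM against 27.3, 25.9 and 28.2 CPM, with a log2 fold change of -0.12 (SE 0.07). The lowest control and the highest knockout of ALDH6A1 were nearly equal. ALDH7A1, which acts in lysine breakdown, ranged from 42.9 to 45.2 CPM in control cells and from 44.5 to 46.5 CPM after knockout (log2 0.05, SE 0.06), and 4 pseudogenes of it are annotated, so its reads may be divided. ALDH3A2, the fatty aldehyde dehydrogenase of the endoplasmic reticulum, ranged from 23.4 to 24.3 CPM and from 21.7 to 23.6 CPM (log2 -0.05, SE 0.07). Both of these overlapped between the groups.

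Counted by edgeR's quasi-likelihood test over all genes at an adjusted p under 0.05, 1 tested member was called higher (ALDH1A1), 2 lower (ALDH1B1 and ALDH5A1) and 5 neither. Of all 12907 tested genes 15.0% were called, 5.71% higher and 9.33% lower, and nothing is read from the members' count because this comparison entered their choice. Groups did not overlap in 5 of the 8 tested members and in 37.7% of all tested genes. The median log2 fold change was -0.0013 for the members and -0.0093 for all tested genes. Without knockout replicate 3 the calls were 2 higher and 2 lower, ALDH9A1 being the addition (log2 0.10, SE 0.04), where 44.4% of all genes were called, 21.6% higher and 22.8% lower.

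**Figure D2:**
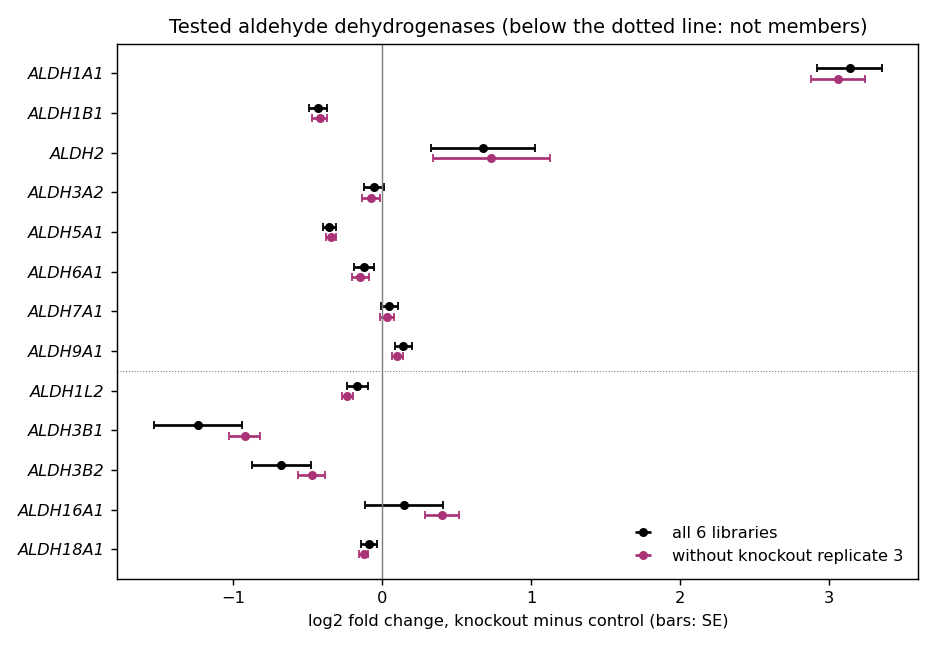
Log2 fold change, knockout minus control, with its SE for the 13 aldehyde dehydrogenases that passed the low-count filter, from all 6 libraries (black) and without knockout replicate 3 (purple). ALDH1A1 lies at 3.14, ALDH1B1 and ALDH5A1 at -0.43 and -0.35, and leaving out the replicate moves ALDH16A1 from 0.15 to 0.40 and ALDH3B1 from -1.24 to -0.92.

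The order of the members by length-scaled level was led by the same 4 genes in both groups. In the controls ALDH9A1 came first at 44.8 ± 0.388 CPM per kilobase, followed by ALDH5A1 (27.5 ± 0.365), ALDH1B1 (16.4 ± 0.601), ALDH7A1 (8.13 ± 0.215), ALDH3A2 (5.72 ± 0.127) and ALDH6A1 (5.11 ± 0.192), all SD with n = 3. ALDH1A1 (0.664 ± 0.215) and ALDH2 (0.0359 ± 0.0118) were much lower, and no neighbours among these 8 overlapped between libraries. ALDH9A1 lay above 87.9% of all tested genes with a known length, ALDH5A1 above 79.4% and ALDH1A1 above 11.5%. In the knockouts ALDH1A1 moved up to 5.80 ± 0.577 CPM per kilobase, level with ALDH3A2 (5.52 ± 0.252), and the libraries of this pair overlapped. The other neighbours among the 8 did not overlap.

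**Figure D3:**
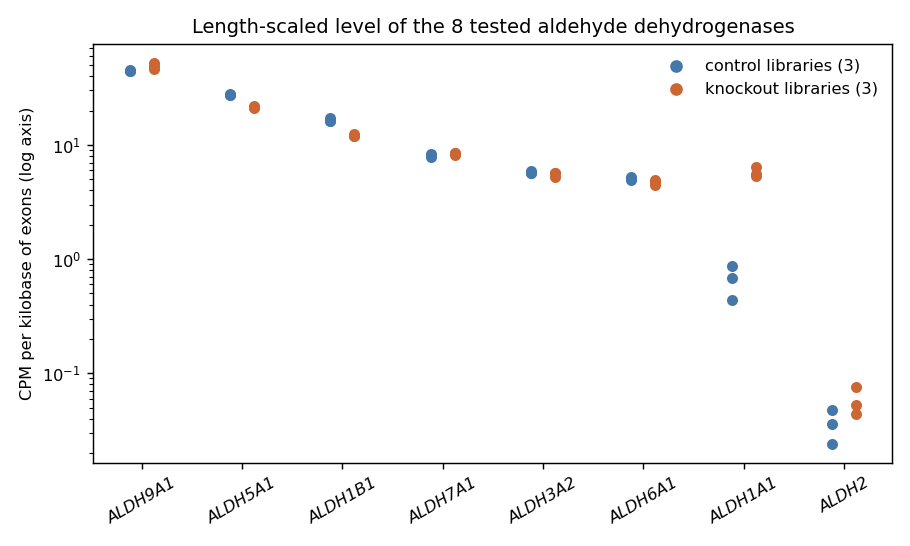
Length-scaled level (CPM per kilobase of exons, log axis) of the 8 tested members in each control (blue) and knockout (orange) library, ordered by the control mean. ALDH9A1, at about 44.8 in the controls, leads in both groups, while ALDH1A1 lies at 0.664 on average in the controls and at 5.80 in the knockouts, beside ALDH3A2 and ALDH6A1.

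Of the 9 family genes outside the members, 5 passed the low-count filter, and they include the most abundant aldehyde dehydrogenases of the line. ALDH18A1, which makes the precursor of proline, stood at 67.6 ± 0.673 CPM per kilobase in the controls and ALDH1L2, the mitochondrial formyltetrahydrofolate dehydrogenase, at 58.2 ± 2.69 (SD, n = 3). On the CPM scale their log2 fold changes were -0.09 (SE 0.05) and -0.17 (SE 0.07), and neither was called. Without knockout replicate 3 both were called lower (-0.12 and -0.23), and so was ALDH1L2 with the GC offset (-0.17). ALDH3B1, which oxidises lipid aldehydes, had control values of 8.06, 8.50 and 8.38 CPM and knockout values of 4.56, 4.19 and 1.84 CPM, with a log2 fold change of -1.24 (SE 0.30). It fell (edgeR adjusted p = 0.035), but the call ended when any control library (log2 -1.26 to -1.22) or knockout replicate 2 (-1.38) was left out, and with no low-count filter (-1.24). Its relative ALDH3B2 had 15.3 to 16.0 CPM in control cells and 12.4, 10.2 and 6.87 CPM after knockout (log2 -0.68, SE 0.20), which missed the threshold (edgeR adjusted p = 0.064) but passed it in 6 of 15 alternatives, among them the GC offset (-0.64) and the fit without knockout replicate 3 (-0.47). ALDH16A1 overlapped between the groups, at 36.7 to 43.3 CPM and 26.4 to 58.2 CPM, and was called higher only without knockout replicate 3 (log2 0.40). In that fit all 5 tested genes outside the members were called, 1 higher and 4 lower, where 44.4% of all genes were called. ALDH4A1 and ALDH3A1 had 0 reads in every library, and ALDH1L1 and ALDH8A1 had at most 10 in any. On the opposite strand ALDH16A1 overlaps PIH1D1 (15514 reads in all) and ALDH1L2 overlaps C12orf45 (4031 reads in all). The limit on counting by strand given for ALDH5A1 holds for them too. On the same strand ALDH4A1 overlaps AL080251.1 and ALDH16A1 overlaps AC010619.1, and the limit on shared reads given for ALDH2 holds for both.

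In knockout replicate 3 the family split by GC content. ALDH3B1, ALDH3B2 and ALDH16A1, whose longest transcripts are 59.5%, 59.7% and 62.6% GC, had 0.419, 0.610 and 0.507 times the mean CPM of knockout replicates 1 and 2 in replicate 3. The 8 tested members, at 41.9% to 52.1% GC, had 0.881 to 1.18 times that mean. The same pattern held beyond the family, since 1304 tested genes with 59% to 63% GC had a median ratio of 0.655 and 5474 genes with 41% to 53% GC a median of 1.06. With a GC trend removed from each library, the log2 fold changes of ALDH1A1, ALDH1B1 and ALDH5A1 were 3.14, -0.40 and -0.34, and that of ALDH3B1 was -1.21.

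**Figure D4:**
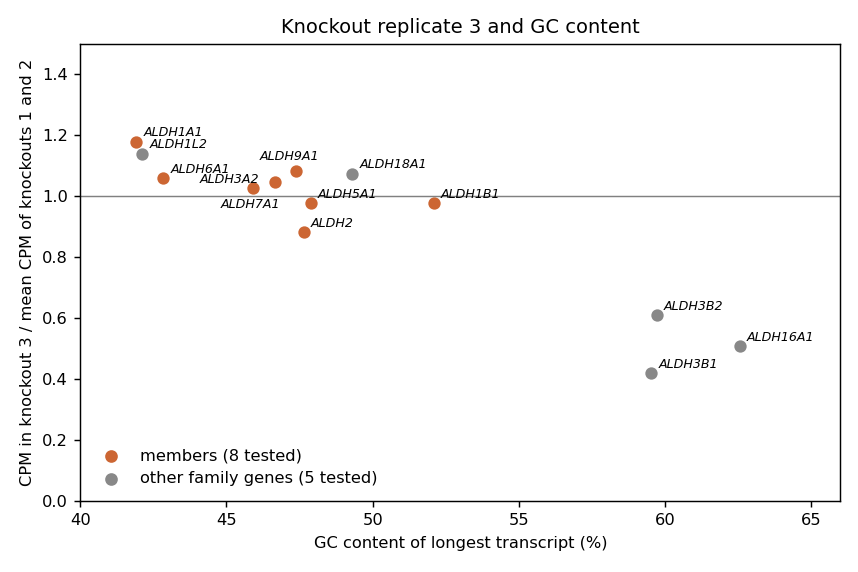
Ratio of the CPM in knockout replicate 3 to the mean CPM of knockout replicates 1 and 2 (vertical axis) against the GC content of the longest transcript (horizontal axis, %) for 8 tested members (orange) and 5 other tested family genes (grey). The members lie between 0.881 and 1.18, and the 3 genes near 60% GC lie between 0.419 and 0.610.

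Genes of retinoid handling around ALDH1A1 were examined from lists chosen with earlier results of these data known, so their p-values describe these libraries only. CYP26A1, the cytochrome P450 that breaks down retinoic acid and is itself induced by it, rose. Its control libraries held 17.2, 14.8 and 14.9 CPM and its knockout libraries 30.7, 31.6 and 30.4 CPM. The groups were far apart, and the spread within each group was narrow. The means of 15.6 ± 1.36 and 30.9 ± 0.597 CPM (SD, n = 3 each) differed 1.98-fold (log2 0.98, SE 0.08, edgeR adjusted p = 4.5e-04). CYP26A1 passed under all 14 other settings (log2 0.95 to 1.06). Of 25 listed genes for retinoid supply and breakdown, 10 were tested, and CYP26A1 was the only 1 called (median log2 -0.13). Without knockout replicate 3 the list had 1 higher and 1 lower. Of all tested genes 5.71% were higher and 9.33% lower, and without knockout replicate 3 these shares were 21.6% and 22.8%. Among the 25 listed genes 11 had no read at all, STRA6, CRABP1 and DHRS3 being examples. The retinol dehydrogenases RDH10 and RDH11 had log2 fold changes of -0.23 (SE 0.09) and -0.22 (SE 0.06) and were not called. CRABP2, which carries retinoic acid to the nucleus, had 0.57 (SE 0.32) and was not called.

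RARA was the only retinoic acid receptor above 1 CPM, with a control mean of 20.7 ± 1.09 CPM and a knockout mean of 16.5 ± 5.76 CPM (SD, n = 3 each; log2 -0.33, SE 0.25, not called). RARB had no read, and RXRA, RXRB and RXRG had 24, 5 and 2 reads over all 6 libraries. Among 10 tested receptor and cofactor genes, 1 rose and 1 fell. The coactivator NCOA3 rose by a log2 of 0.25 (SE 0.06; 204 ± 2.68 CPM became 242 ± 15.4; edgeR adjusted p = 0.031), and its relative NCOA1 fell by 0.25 on the log2 scale (SE 0.07, from 19.2 ± 0.528 CPM, edgeR adjusted p = 0.049), each SD with n = 3. Of 20 target genes, 7 were tested, 2 rose and 5 were not called, where 5.71% of all tested genes rose and 9.33% fell. Without knockout replicate 3 the target genes gave 3 higher and 2 lower, and the receptors and cofactors 2 higher and 1 lower, in a fit that called 44.4% of all genes. Beside CYP26A1, which is on both lists, RARRES3 had 7.39 ± 0.357 CPM in control cells and 10.8 ± 1.20 CPM after knockout, SD with n = 3 each, and rose by a log2 of 0.55 (SE 0.11, edgeR adjusted p = 0.017). CD38 and ITGA4 had log2 fold changes of -0.13 and -0.14 and were not called. The calls of RARRES3, NCOA3 and NCOA1 were kept in only 1, 2 and 1 of the 6 fits that left out a library (edgeR adjusted p = 0.051 to 0.086, 0.09 to 0.14 and 0.11 to 0.20 where they ended). NCOA1 passed under 5 of 14 other settings.

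**Figure D5:**
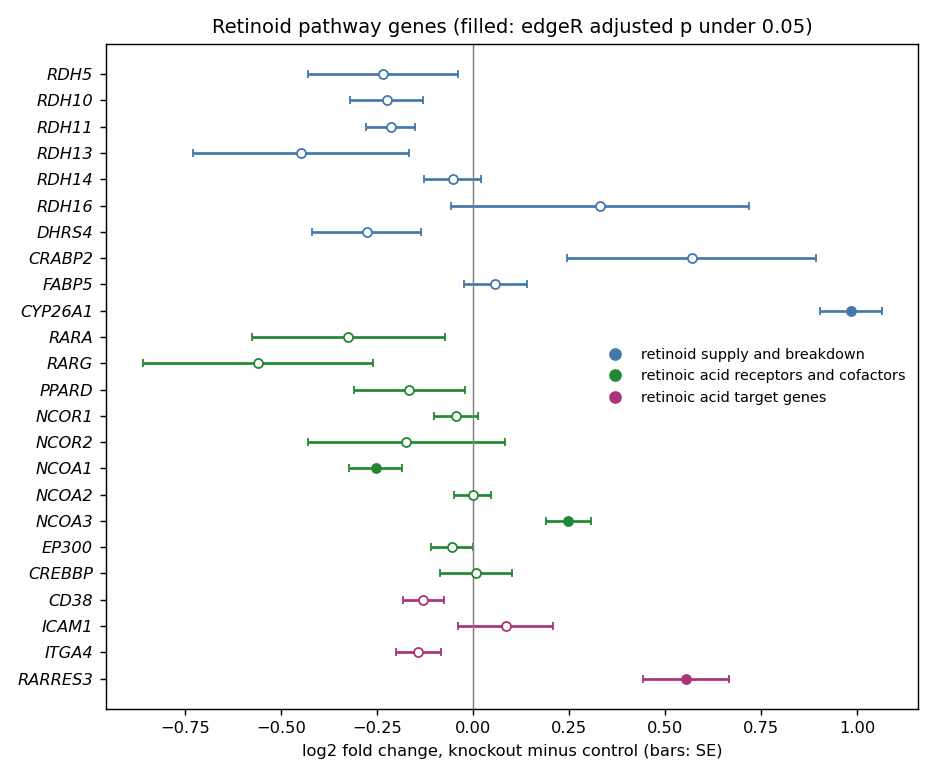
Log2 fold change, knockout minus control, with its SE for tested genes of retinoid supply and breakdown (blue), receptors and cofactors (green) and target genes (purple). Filled points have an edgeR adjusted p under 0.05, and CYP26A1 (0.98) and RARRES3 (0.55) lie farthest to the right among them.

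All 26 genes of branched-chain amino acid breakdown, the pathway of ALDH6A1, were tested, and 2 fell and none rose (median log2 -0.11). These were DBT, the transacylase of the branched-chain keto acid dehydrogenase (log2 -0.34, SE 0.08, with 52.4 ± 1.42 CPM in control and 41.5 ± 3.74 CPM in knockout cells, edgeR adjusted p = 0.028), and ACAT1, the mitochondrial thiolase (log2 -0.28, SE 0.06, with 141 ± 3.58 and 116 ± 6.78 CPM, edgeR adjusted p = 0.020), each SD with n = 3. With all 6 libraries 9.33% of all tested genes fell and 5.71% rose. Without knockout replicate 3, 13 of the 26 fell and none rose, where 22.8% of all genes fell and 21.6% rose. Of 6 tested genes of the GABA shunt and of 5 in lysine breakdown none was called (medians -0.04 and -0.03), and without knockout replicate 3 the GABA list had 1 that fell and the lysine list 1 that rose and 2 that fell. None of 7 tested genes of amine oxidation and carnitine synthesis was called (median 0.11; 2 rose and 1 fell without knockout replicate 3).

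Of 8 tested genes of fatty aldehyde and sphingoid base metabolism, the setting of ALDH3A2, 2 rose and 6 were not called, and without knockout replicate 3 the list had 3 higher and 3 lower. PHYH, which starts the breakdown of phytanic acid, rose 1.65-fold, with 33.0 ± 2.06 CPM in control and 54.5 ± 2.15 CPM in knockout cells (SD, n = 3 each; SE of the log2 value 0.07; edgeR adjusted p = 7.7e-04). SGPP1, a sphingosine-1-phosphate phosphatase, rose by a log2 of 0.29 (SE 0.06, edgeR adjusted p = 0.018). Among 12 tested enzymes that clear aldehydes by other routes, 3 rose and 1 fell, against 4 and 5 without knockout replicate 3. For both lists the shares over all tested genes were 5.71% higher and 9.33% lower. Without knockout replicate 3 these shares were 21.6% and 22.8%. The carbonyl reductase CBR1 fell by 0.33 on the log2 scale (SE 0.07, to 42.1 ± 2.86 CPM, SD, n = 3, edgeR adjusted p = 0.025). CBR1 lies on chromosome 21, where 71 of 123 tested genes fell, 1 rose and the median log2 fold change was -0.42. The 3 that rose were near 1 CPM after knockout and lower in the controls, and were named after their values were seen. They are GSTA4, which conjugates the lipid aldehyde hydroxynonenal (log2 1.86, SE 0.27), the aldehyde oxidase AOX1 (log2 1.05, SE 0.19) and the ethanol-oxidising CYP2E1 (log2 1.18, SE 0.31), with edgeR adjusted p = 0.0044, 0.012 and 0.042. Their control means were 0.301, 0.562 and 0.541 CPM and their knockout means 1.09, 1.17 and 1.22 CPM, in that order. GSTA4 passed the low-count filter only through its knockout libraries, so its adjusted p is no support for the rise.

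Targets of NRF2, the factor that induces detoxifying enzymes, gave 4 lower and 1 higher among 13 tested genes (median log2 -0.06), and 7 lower and 1 higher without knockout replicate 3. Of all tested genes 9.33% were lower and 5.71% higher with all 6 libraries. The fit without knockout replicate 3 called 44.4% of all genes, 22.8% lower and 21.6% higher. HMOX1, haem oxygenase, fell 2.68-fold, with 5.05 ± 0.230 CPM in control and 1.88 ± 0.221 CPM in knockout cells (SD, n = 3 each; SE of the log2 value 0.13; edgeR adjusted p = 6.7e-04). TXN, thioredoxin, fell 1.51-fold (SE of the log2 value 0.07, edgeR adjusted p = 0.0022). SRXN1, sulfiredoxin, fell by 0.49 on the log2 scale (SE 0.07, edgeR adjusted p = 0.0042). The ferritin genes, named after their values were seen, split, with FTL lower (log2 -0.38, SE 0.06, edgeR adjusted p = 0.0079) and FTH1 higher (log2 0.35, SE 0.05, edgeR adjusted p = 0.0060). NQO1 had a log2 fold change of -0.25 (SE 0.10) and was not called. The calls of DBT, ACAT1, SGPP1 and CBR1 each ended in at least 4 of the 6 fits that left out a library (edgeR adjusted p up to 0.13, 0.14, 0.11 and 0.12), whereas those of PHYH, HMOX1, TXN and SRXN1 were kept in all 6. For GSTA4, AOX1, CYP2E1, FTL and FTH1 the results of these fits are not given here.

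Genomic neighbours were compared to see whether whole stretches moved with a member. No gene within 500 kb of ALDH1A1 had enough reads to be tested. The 3 genes listed there, TMC1, LINC01474 and ANXA1, held 0 to 1 reads per control library and 0 to 4 per knockout library. On chromosome 9 as a whole 523 genes were tested, 23 were higher and 54 lower, with a median log2 fold change of -0.02. Over all 12907 tested genes 5.71% were higher and 9.33% lower, and nothing is read from the counts of called neighbours. Around ALDH5A1 7 genes were tested, with a median of -0.04. There MRS2, a mitochondrial magnesium channel, fell (log2 -0.31, SE 0.08, edgeR adjusted p = 0.041) and FAM65B rose (log2 0.32, SE 0.05, edgeR adjusted p = 0.0083). The only tested neighbour of ALDH1B1 was SHB, with a log2 fold change of -0.33 (SE 0.15), which was not called. Near ALDH9A1, MGST3, a microsomal glutathione transferase, rose by a log2 of 0.58 (SE 0.09, edgeR adjusted p = 0.0048). Near ALDH6A1, 2 of 15 tested genes fell, the prostaglandin reductase PTGR2 (log2 -0.32, edgeR adjusted p = 0.035) and the cholesterol carrier NPC2 (log2 -0.27, edgeR adjusted p = 0.034). The antisense gene MAPKAPK5-AS1 was the 1 of 13 tested genes near ALDH2 that fell (log2 -0.27, edgeR adjusted p = 0.047; its reads may be mixed with those of its partner), and the pseudogene PRKXP1 the 1 of 7 near ALDH1A3 that rose (log2 0.30, edgeR adjusted p = 0.042). None of the 7, 4 and 5 tested genes near ALDH1A2, ALDH3A2 and ALDH7A1 was called.

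The 5 tested genes with the profile nearest to that of ALDH1A1 across the 6 libraries were LUM, BMPER, ACPP, AFF2 and FBP1. Likeness was the Euclidean distance between log2(CPM + 0.5) profiles centred on their own means, and it was 0.617, 0.812, 1.07, 1.17 and 1.35 in that order. LUM, the matrix protein lumican, had no read in any control library and reached 2.14, 2.05 and 3.10 CPM after knockout, with knockout replicate 3 again the highest. LUM thus passed the low-count filter through its knockout libraries alone. Its fitted log2 fold change was 9.23, far from the 3.14 of ALDH1A1, so its first place depends on the 0.5 CPM added before the logarithm. BMPER, which binds bone morphogenetic proteins, went from 1.04, 0.863 and 1.28 CPM to 7.38, 6.93 and 8.32 CPM. ACPP, a secreted acid phosphatase, AFF2, an X-linked gene of the AFF transcription elongation family, and FBP1, a gluconeogenic phosphatase on chromosome 9, stood at 3.75, 180 and 4.75 CPM on average in the knockouts against 0.501, 48.3 and 1.08 CPM in the controls. These profiles share the split between the groups, so the likeness describes these libraries only.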

How the data were processed

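RNA from 6 samples of the line was made into stranded mRNA libraries, per the labels' protocols. The submitters' processing notes name the tools CASAVA 1.8, HISAT2, Trimmomatic, DESeq2 and featureCounts and the build hg38. For annotation, strand setting and multiply aligned reads nothing is given in the sources used here. The authors deposited whole-number read counts for 26485 gene symbols in 6 libraries, and 0 per-sample columns were left unused. They also deposited log2 values for 12029 genes, each the log2 of the count times 1 factor per library.

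Groups came from the sample titles. The members and gene lists were chosen with earlier results of these data known, so the adjusted p-values of list genes describe these libraries only. All members and family genes are named, with up to 3 called genes of at least 1 CPM per list, up to 3 called neighbours per member and the 5 profiles nearest to ALDH1A1. The test was edgeR 4.0.16 under R 4.3.3, as a robust quasi-likelihood fit after filterByExpr and TMM scaling, with group as the only term, and p-values were adjusted by Benjamini-Hochberg across 12907 genes (threshold 0.05). Each SE was the size of the log2 fold change over the root of its F statistic. Depth scaling to CPM (counts per 1000000) used the TMM library sizes. Positions, exon lengths (union over the basic set) and GC content came from GENCODE 29 on hg38, which held 23899 symbols as written, 728 under a synonym and 1858 not at all. Limits from 3 reads cover counting error only. Alternatives were RLE or total-count scaling, other low-count filters, DESeq2 1.42.0, limma-voom (limma 3.58.1), a replicate block, a GC offset, other thresholds and leaving out each library; limma on the deposited log2 values was added after the data were seen. Some genes of the lists are counted but not reported here by name. The fit was tested on simulated data.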

Additional observations from a re-analysis of the deposited data

How the results depend on the processing

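ALDH1A1, ALDH1B1 and ALDH5A1 kept their direction and their side of the threshold in all 15 alternatives, with log2 fold changes from 2.90 to 3.37, from -0.45 to -0.40 and from -0.37 to -0.34. These alternatives refit counts that were known when the members were chosen. A kept call therefore describes the processing and is no support for the difference. The 2-fold threshold left ALDH1A1 as the 1 member called higher and 0 called lower. With the GC offset 2 members were higher, ALDH9A1 (log2 0.16) being the addition. Leaving out libraries gave 1 to 2 members higher and 2 lower. Signs turned for ALDH3A2 without knockout replicate 1 and for ALDH16A1 without knockout replicate 2, with log2 ranges over the left-out libraries of -0.075 to 0.0046 and -0.12 to 0.40; the cause was not tested.

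Over all genes, 737 were higher and 1204 lower. The GC offset gave 2234 and 2453, an adjusted p under 0.01 gave 276 and 552, and the 2-fold threshold gave 90 and 313, the last 2 pairs by the stricter limit itself. Leaving out single libraries gave 252 to 2817 higher and 527 to 2978 lower, the highest pair without knockout replicate 3. The replicate block gave 450 higher and 876 lower and changed no member's call, but it ended those of ACAT1, SGPP1, NCOA1, NCOA3 and CBR1 (edgeR adjusted p = 0.057, 0.076, 0.16, 0.072 and 0.060). Control and knockout libraries of the same number deviated from their group means with correlations of -0.0088, -0.10 and 0.081, so the numbers were not taken as pairs. Control replicate 1 correlated best with knockout replicate 2 (0.19). The low counts of ALDH2, ALDH1A3 and the controls of ALDH1A1 limit their precision.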
